A study of Mus musculus with 2 samples.

Results

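TOBF1 peaks at the ends of long non-coding RNA (lncRNA) genes were examined in mouse embryonic stem (ES) cells. On chromosomes 1 to 19, a peak was taken when its midpoint lay within 1 kb of the start or end of a RefSeq lncRNA gene and no start or end of a protein-coding gene was that close. This gave 328 of the 11545 peaks on these chromosomes (2.84%, exact 95% interval 2.55 to 3.16%), out of 12181 peaks in the whole list. The peaks lay at 305 of 12408 lncRNA genes (2.46%), and 4 of them were within 1 kb of more than 1 such gene. The cells were R1/E ES cells grown with serum and LIF, and they carried TOBF1, the product of A830080D01Rik, with a tag on a bacterial artificial chromosome (BAC). Chromatin was crosslinked with formaldehyde and DSG and precipitated with an antibody against GFP (1 library), and an input library of the same tagged cells had no antibody (1 library, not used here). There is 1 library per group, so no value has a replicate error, intervals cover counting error only, and the number of reads behind a peak is unknown. Scores are the authors' own values per peak, read as −log10 of a q-value.

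lncRNAs are transcripts without a long open reading frame. Some act in the nucleus on nearby genes or as scaffolds of nuclear bodies, some are spliced only to release small nucleolar RNAs (snoRNAs) or microRNAs from their introns or exons, and for many only the act of transcription is known. Their promoters are often enhancer-like and active in few cell types. In ES cells the Platr genes (pluripotency-associated transcripts) and the primary transcript of the miR-290 cluster are familiar examples. RNA levels were not measured in these libraries, and no precipitation from untagged cells was used, so TOBF1 binding and non-specific signal at active chromatin cannot be told apart here.

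The start regions below belong to lncRNA genes whose 5′ end lay under or beside a peak: the Platr genes because of their known expression in ES cells, Gm10858 and 4833407H14Rik because an octamer lay under the peak, and Gm38777 and Gm36555 because a strong peak covered most or all of the region. The peaks at Gm38777, Gm36555, Gm10858 and 4833407H14Rik scored 46.7, 29.5, 23.1 and 5.15, and those at the Platr genes are given below. Each runs 5′ to 3′ on the strand of the gene, from 250 bases before the RefSeq start to 50 bases from it (build GRCm38.p6, the coordinates of mm10), and capitals mark the bases under the peak.
Platr22: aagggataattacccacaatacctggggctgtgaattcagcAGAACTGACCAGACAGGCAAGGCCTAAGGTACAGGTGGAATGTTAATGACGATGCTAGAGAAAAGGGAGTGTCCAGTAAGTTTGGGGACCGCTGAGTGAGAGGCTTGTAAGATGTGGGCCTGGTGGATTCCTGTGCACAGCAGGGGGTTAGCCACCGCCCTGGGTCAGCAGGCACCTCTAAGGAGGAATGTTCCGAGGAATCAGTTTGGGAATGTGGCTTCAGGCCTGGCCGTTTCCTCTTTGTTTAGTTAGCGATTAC
Platr26: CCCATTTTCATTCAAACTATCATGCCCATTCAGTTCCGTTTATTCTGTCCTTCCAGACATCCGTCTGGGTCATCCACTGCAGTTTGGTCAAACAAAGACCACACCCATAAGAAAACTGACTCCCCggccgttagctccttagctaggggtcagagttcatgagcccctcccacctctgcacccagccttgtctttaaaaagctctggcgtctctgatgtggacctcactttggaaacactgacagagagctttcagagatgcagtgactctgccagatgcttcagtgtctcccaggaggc
Platr8: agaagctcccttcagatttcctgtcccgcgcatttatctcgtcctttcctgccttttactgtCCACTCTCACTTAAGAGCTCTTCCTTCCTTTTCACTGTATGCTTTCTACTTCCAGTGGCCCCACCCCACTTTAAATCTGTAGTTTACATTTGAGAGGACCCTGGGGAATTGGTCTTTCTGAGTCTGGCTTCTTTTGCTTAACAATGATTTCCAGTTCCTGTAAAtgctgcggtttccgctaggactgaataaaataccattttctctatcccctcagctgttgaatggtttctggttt
Platr9: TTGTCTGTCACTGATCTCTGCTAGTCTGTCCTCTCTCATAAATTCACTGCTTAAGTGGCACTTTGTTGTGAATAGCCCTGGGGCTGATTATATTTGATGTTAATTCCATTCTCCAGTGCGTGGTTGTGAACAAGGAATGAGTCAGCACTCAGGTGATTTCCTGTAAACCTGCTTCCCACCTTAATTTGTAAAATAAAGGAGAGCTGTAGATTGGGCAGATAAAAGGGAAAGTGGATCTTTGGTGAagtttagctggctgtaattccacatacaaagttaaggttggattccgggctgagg
Gm10858: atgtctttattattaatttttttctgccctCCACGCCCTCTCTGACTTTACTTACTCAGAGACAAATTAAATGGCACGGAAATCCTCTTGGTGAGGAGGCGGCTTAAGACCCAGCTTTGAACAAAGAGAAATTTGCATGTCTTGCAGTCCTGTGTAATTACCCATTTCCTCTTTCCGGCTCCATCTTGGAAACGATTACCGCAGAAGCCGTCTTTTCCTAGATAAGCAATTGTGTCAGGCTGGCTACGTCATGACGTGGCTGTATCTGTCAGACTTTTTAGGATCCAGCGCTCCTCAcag
4833407H14Rik: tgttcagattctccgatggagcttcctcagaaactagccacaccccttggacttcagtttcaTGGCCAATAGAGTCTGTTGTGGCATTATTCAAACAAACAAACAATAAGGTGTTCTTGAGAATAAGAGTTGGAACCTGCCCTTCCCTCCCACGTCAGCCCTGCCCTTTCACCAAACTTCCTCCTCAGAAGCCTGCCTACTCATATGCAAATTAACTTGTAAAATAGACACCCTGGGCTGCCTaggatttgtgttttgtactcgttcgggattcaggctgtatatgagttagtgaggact
Gm38777: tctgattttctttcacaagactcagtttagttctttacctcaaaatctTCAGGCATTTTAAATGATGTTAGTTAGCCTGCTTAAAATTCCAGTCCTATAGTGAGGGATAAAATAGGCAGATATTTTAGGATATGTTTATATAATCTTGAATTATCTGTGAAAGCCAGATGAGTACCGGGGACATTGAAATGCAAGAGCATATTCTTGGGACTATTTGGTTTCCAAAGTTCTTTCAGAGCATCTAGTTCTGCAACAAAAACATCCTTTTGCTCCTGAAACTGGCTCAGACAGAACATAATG
Gm36555: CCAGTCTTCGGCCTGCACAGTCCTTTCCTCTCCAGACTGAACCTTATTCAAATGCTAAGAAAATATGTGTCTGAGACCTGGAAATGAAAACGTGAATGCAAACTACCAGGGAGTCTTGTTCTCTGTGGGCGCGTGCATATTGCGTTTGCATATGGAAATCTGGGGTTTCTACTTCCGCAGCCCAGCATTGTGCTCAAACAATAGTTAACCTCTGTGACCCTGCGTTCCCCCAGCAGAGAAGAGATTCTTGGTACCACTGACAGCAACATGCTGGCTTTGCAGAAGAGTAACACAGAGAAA
Platr22 lies at chr1:136695961-136696260 (plus strand), Platr26 at chr2:71719167-71719466 (plus), Platr8 at chr2:109913270-109913569 (minus), Platr9 at chr4:34911432-34911731 (minus), Gm10858 at chr5:146897048-146897347 (minus), 4833407H14Rik at chr19:53460372-53460671 (plus), Gm38777 at chr6:25032891-25033190 (plus) and Gm36555 at chr15:25332095-25332394 (plus).

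Peaks at lncRNA gene ends had scores close to those of the list as a whole. Their median was 9.28 (95% interval of the median 8.27 to 10.7, quartiles 5.52 and 19.1, range 1.55 to 123.4), against 10.0 over all 11217 other peaks of these chromosomes. The 642 peaks at protein-coding gene ends had a lower median of 7.07 (interval 6.54 to 7.66). The 891 peaks inside lncRNA genes but away from their ends and from protein-coding ends had a median of 10.7 (interval 10.1 to 11.4). Of the lncRNA-end peaks, 150 (45.7%, exact interval 40.2 to 51.3%) reached the median of all peaks on these chromosomes, where 29.8% of the peaks at protein-coding ends did. Across quartiles of score from low to high, lncRNA-end peaks made up 3.12%, 3.06%, 2.42% and 2.77% of all peaks, whereas peaks at protein-coding ends made up 8.91%, 6.74%, 4.16% and 2.46%. These shares are descriptions of 1 library, and the differences were not tested.

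**Figure D1:**
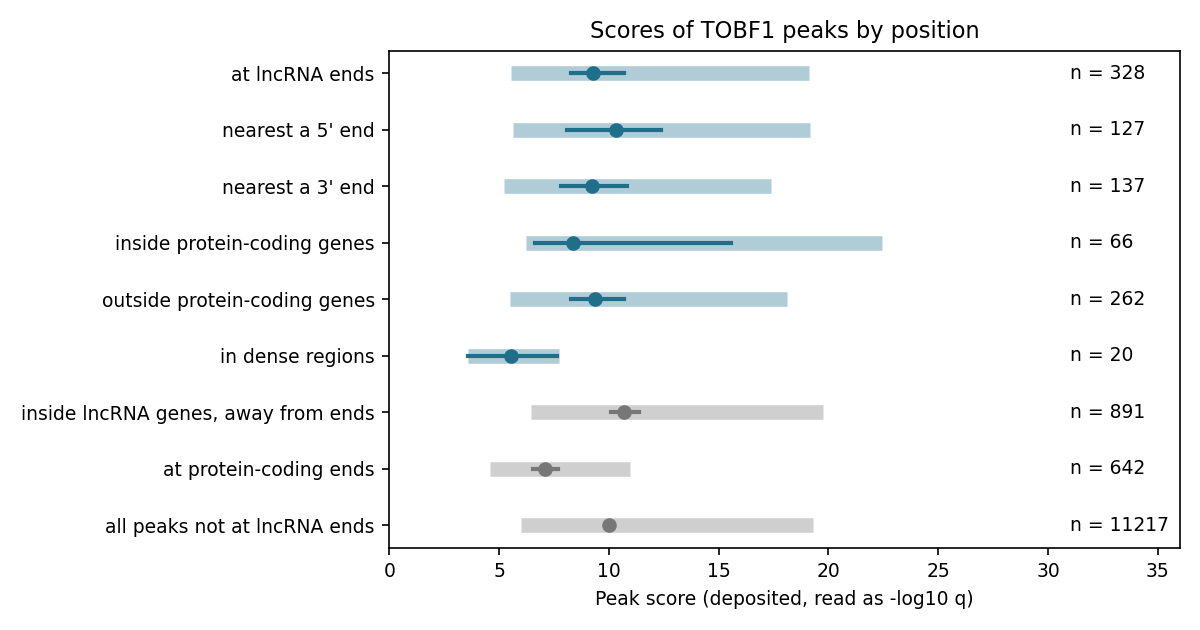
Peak scores (x axis, deposited values read as −log10 q) by position of the peak; dots are medians, thin lines the 95% interval of the median and wide bars the quartiles, with blue for peaks at lncRNA gene ends and grey for others. The 328 lncRNA-end peaks (median 9.28) sit near all other peaks (10.0) and above the peaks at protein-coding ends (7.07).

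lncRNA genes had such a peak about as often as protein-coding genes had one at theirs. Of 12408 lncRNA genes on the chromosomes, 305 were called, that is, had a peak by the rule above (2.46%, exact interval 2.19 to 2.75%), and of 20665 protein-coding genes 576 had one within 1 kb of an end (2.79%, interval 2.57 to 3.02%). A further 36 lncRNA genes had a peak at an end only where a protein-coding end was also within 1 kb of it, as at shared promoters. The count for coding genes kept peaks near lncRNA ends. Without the exclusion of coding ends, the share of lncRNA genes was 2.75% (interval 2.47 to 3.05%). Genes whose symbol was no Gm, Rik or LOC placeholder, which include some clone-based symbols such as AI506816 and D7Ertd143e, had a peak in 27 of 479 cases (5.64%, interval 3.75 to 8.10%), and Gm genes in 233 of 9879 (2.36%). Genes with a curated transcript had one in 99 of 3221 cases (3.07%, interval 2.50 to 3.73%), and genes known from predicted transcripts only in 206 of 9187 (2.24%, interval 1.95 to 2.57%). The median length was 7501 bp for the 305 genes and 8394 bp for all lncRNA genes. Most genes (280) had 1 peak, 23 had 2, and Snhg1 and Gm51701 had 3.

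Peaks were most frequent just before the start of lncRNA genes. The strand was known for 9291 of the lncRNA genes, of which 124 had a peak within 1 kb of the 5′ end (1.33%, interval 1.11 to 1.59%) and 129 within 1 kb of the 3′ end (1.39%, interval 1.16 to 1.65%). Around the 5′ end, 34 peaks had their midpoint in the 250 bp before it and 20 in the 250 bp after it. Between 750 and 1000 bp away there were 9 on the upstream side and 11 on the downstream side. Farther out, from 1 to 2 kb, counts per 250 bp were 12 to 18 upstream and 6 to 21 downstream. The 20 just after the start lay within that range, and the 34 just before it lay above it. Around the 3′ end the counts per 250 bp lay between 11 and 25 within 1 kb, with no such rise at the end itself (19 in the last 250 bp of the gene and 11 in the 250 bp beyond it). Over all ends, with or without a strand, 107 peaks lay within 250 bp, 65 between 750 and 1000 bp (just inside the rule, median score 9.30) and 60 between 1000 and 1250 bp (just outside it, median score 9.80). Peaks nearest a 5′ end had a median score of 10.3 (127 peaks, interval 8.11 to 12.4) and those nearest a 3′ end 9.23 (137 peaks, interval 7.81 to 10.8), so the intervals overlapped.

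**Figure D2:**
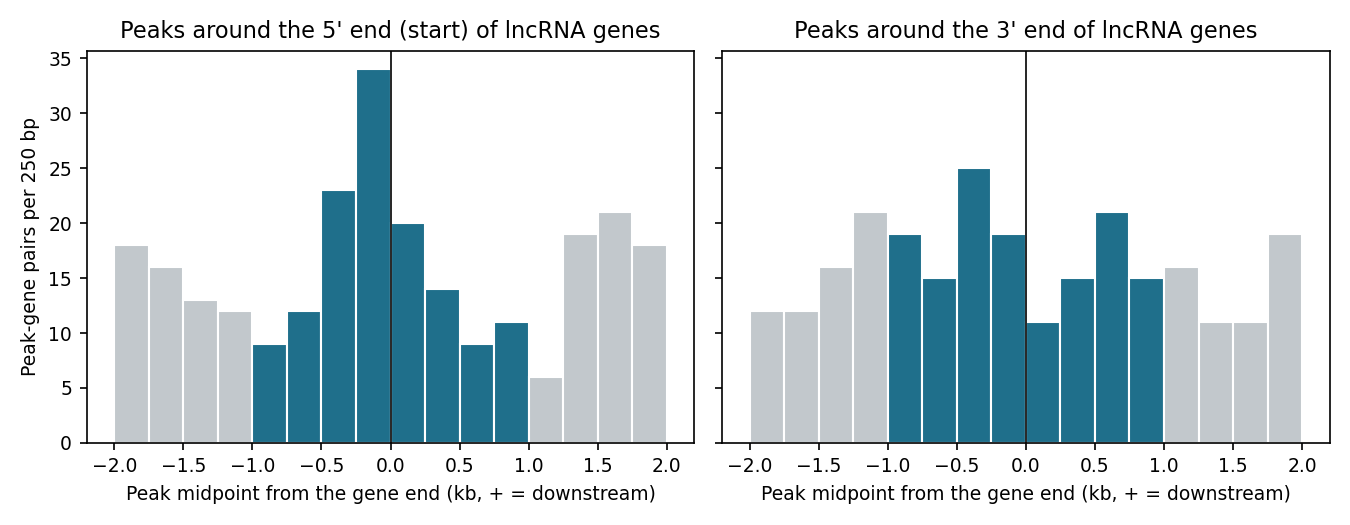
Number of peak and gene pairs per 250 bp (y axis) by distance of the peak's midpoint from the 5′ end (left) or 3′ end (right) of the 9291 lncRNA genes with a known strand (x axis, kb), for peaks over 1 kb from protein-coding ends; blue bars lie within 1 kb. The highest bar, 34 pairs, is the 250 bp before the 5′ end, while bars at the 3′ end range from 11 to 25 within 1 kb.

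The 20 highest peaks had scores from 41.4 to 123.4. Of these, 16 were at genes with predicted transcripts only, as were 218 of all 328 peaks (66.5%), and 5 were on chromosome 13, as were 29 of the 328. None was at a gene with a symbol other than Gm, Rik or LOC, where 34 of the 328 lay. The highest was on chromosome 13 (66710793 to 66711453, score 123.4, rank 14 of all peaks on these chromosomes), 42 bp from the 3′ end of Gm40988 and 30.3 kb from the zinc finger gene Zfp640. It was followed by a peak 872.5 bp from the 3′ end of Gm5441 on chromosome 12 (117235203 to 117235584, score 108.6), inside Ptprn2, which encodes a phosphatase-like protein of secretory granules. The third lay 294.5 bp before the start of Gm20609 on chromosome 10 (71310307 to 71310594, score 100.1), with Cisd1 nearest, a gene of a mitochondrial iron-sulphur protein. The fourth lay 798.5 bp from the 3′ end of Gm36603 on chromosome 3 (131102286 to 131102589, score 87.7), 7.86 kb from Lef1, which encodes a transcription factor of the Wnt pathway. Gm40987 on chromosome 13 (score 61.0) and 1700039I01Rik, which lies inside the imprinted gene Zdbf2 (59.1), came next.

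Further peaks among the 20 highest had these nearest protein-coding genes. A peak at Gm33763 (score 52.6) lay 5.34 kb from Msx2, a homeobox gene, and a peak at the 3′ end of C130071C03Rik (52.6) lay 73.9 kb from Mef2c, which encodes a transcription factor of muscle and neurons. Gm36038, with a peak 335 bp inside its start (51.5), was 18.8 kb from Tfap2c, a factor of trophoblast and germ cells. Gm52029, with a peak 251 bp inside its start (41.8), was 405 kb from Id4, an inhibitor of bHLH factors. The remaining ones of the 20 highest included Gm51018 inside Larp7, a gene of the 7SK particle (57.5), and Gm51471 near Zfp93 (55.1). At Gm46826 (52.0) the peak lay inside Slc9b2, which the lncRNA gene overlaps only in part. Then came Gm38777 (46.7), Gm34299 inside Crtac1 (45.8), Gm34947 (43.4) and Gm46729 inside Ccdc3 (43.0). The last were Gm15866 inside C1qtnf7 (42.1), Gm40562 (41.9) and Gm38782 (41.4). These neighbours were named by position alone, and being nearest does not show that a peak acts on the gene.

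On chromosome 13, 9 of the peaks fell between 63094932 and 66715537, a stretch that held 132 peaks in all. Its bounds are the outer edges of the first and last of these 9, so they were set by the peaks themselves. Over the whole chromosome, 29 of 809 peaks (3.58%) were at lncRNA gene ends, against 2.84% on chromosomes 1 to 19. The 9 were at Gm40988 (123.4), Gm40987 (61.0 and 7.06), Gm32476 (26.8), Gm46422 (16.9), Gm45966 (11.0 and 3.12), Gm52033 (9.26) and Gm26715 (8.96). Those at Gm40987, Gm26715 and Gm45966 stood in dense regions, runs of 6 or more peaks at gaps of up to 10 kb, of 7, 21 and 7 peaks. Which reads the authors kept at repeated sequence is not given in the sources used here, and its part in these scores was not tested. Over all lncRNA-end peaks, 20 (6.10%) stood in dense regions, with a median score of 5.56, against 5.23% of all peaks.

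**Figure D3:**
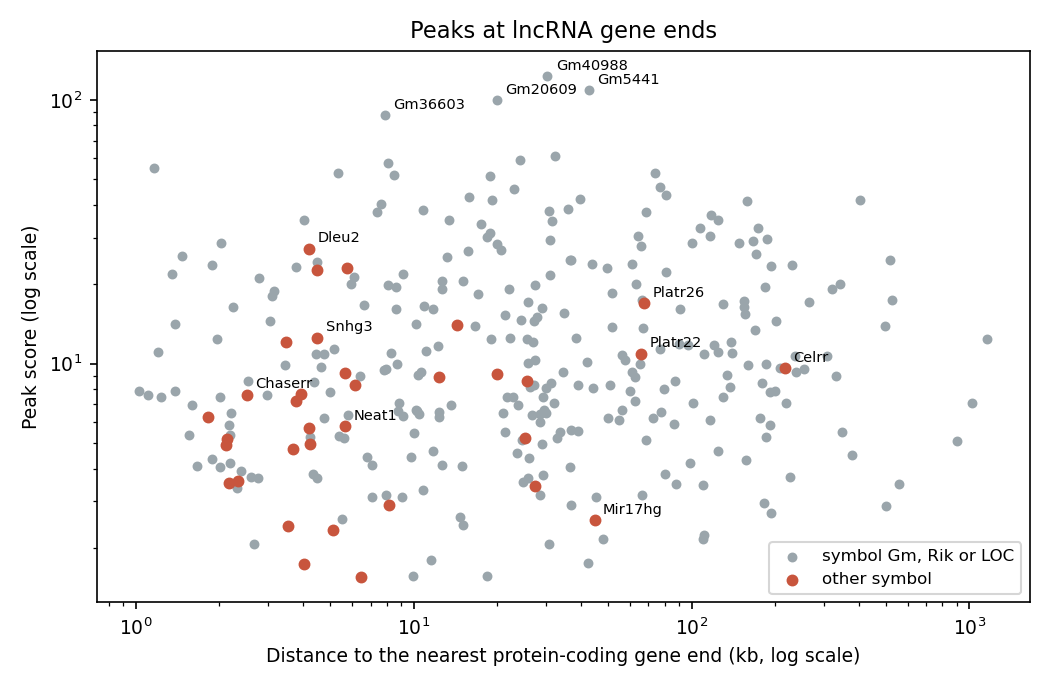
Score (y axis, log scale) of each of the 328 peaks at lncRNA gene ends by its distance to the nearest protein-coding gene end (x axis, kb, log scale); red points are at genes with a symbol other than Gm, Rik or LOC. The 4 highest points, Gm40988, Gm5441, Gm20609 and Gm36603, are at Gm symbols, and the red points reach no higher than Dleu2 at 27.3.

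Among lncRNA genes with known roles, host genes of snoRNAs often had peaks, most of them weak. These genes are transcribed to carry snoRNAs in their introns, and their spliced RNA has mostly no coding role. Of 21 hosts found in the annotation, 6 were called (28.6%, exact interval 11.3 to 52.2%), where 2.46% of all lncRNA genes were. A further 3, namely Gas5, Snhg6 and Snhg16, had a peak at an end only together with a protein-coding end. Their peaks were weak: 11 peaks had a median score of 3.60 (range 1.74 to 12.6), and 1 of the 11 reached the median of all peaks. The strongest lay beyond the 3′ end of Snhg3 (score 12.6, chromosome 4, 132351029 to 132351802). With only peaks at or above the median score, Snhg3 was the sole host left (4.76%, against 1.19% of all lncRNA genes), and without dense regions 4 of 21 were called (19.05%, against 2.37%). The list was chosen with earlier results of these data known, and no test of it was made.

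Snhg1 and Zfas1 each had several separate peaks along the gene, with gaps between them. In Snhg1, a host of several C/D box snoRNAs on chromosome 19, peaks within the gene scored 5.54, 2.77 and 3.60 from its 5′ to its 3′ side, and those beyond the 3′ end 2.42 and 7.65. Zfas1, the antisense host of Snord12 snoRNAs at the Znfx1 promoter, had scores of 8.27, 6.21, 10.5 and 3.51 inside the gene and 4.72 beyond it. The peaks of 8.27 and 6.21 were also within 1 kb of a protein-coding end, and that of 10.5 was over 1 kb from both ends of Zfas1, so these were not counted. The 3.51 peak overlapped Snord12. Snhg5 had a peak at each end (5.22 within the first 176 bp, 3.44 beyond the 3′ end), Snhg15 had 2.34 inside and 1.74 beyond its 3′ end, and Dancr, whose RNA is known for holding back differentiation, had 8.61 within the gene. Of the 11 peaks in this list, 10 were nearest the 3′ end of their host, as were 137 of all 328 peaks, but the rule takes no peak near a 5′ end that lies close to a coding gene, as at Zfas1. The peak 631.5 bp inside 2410006H16Rik on chromosome 11 (7.87) overlapped Snord49a, and in all 3 of the 328 peaks overlapped a snoRNA gene.

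**Figure D4:**
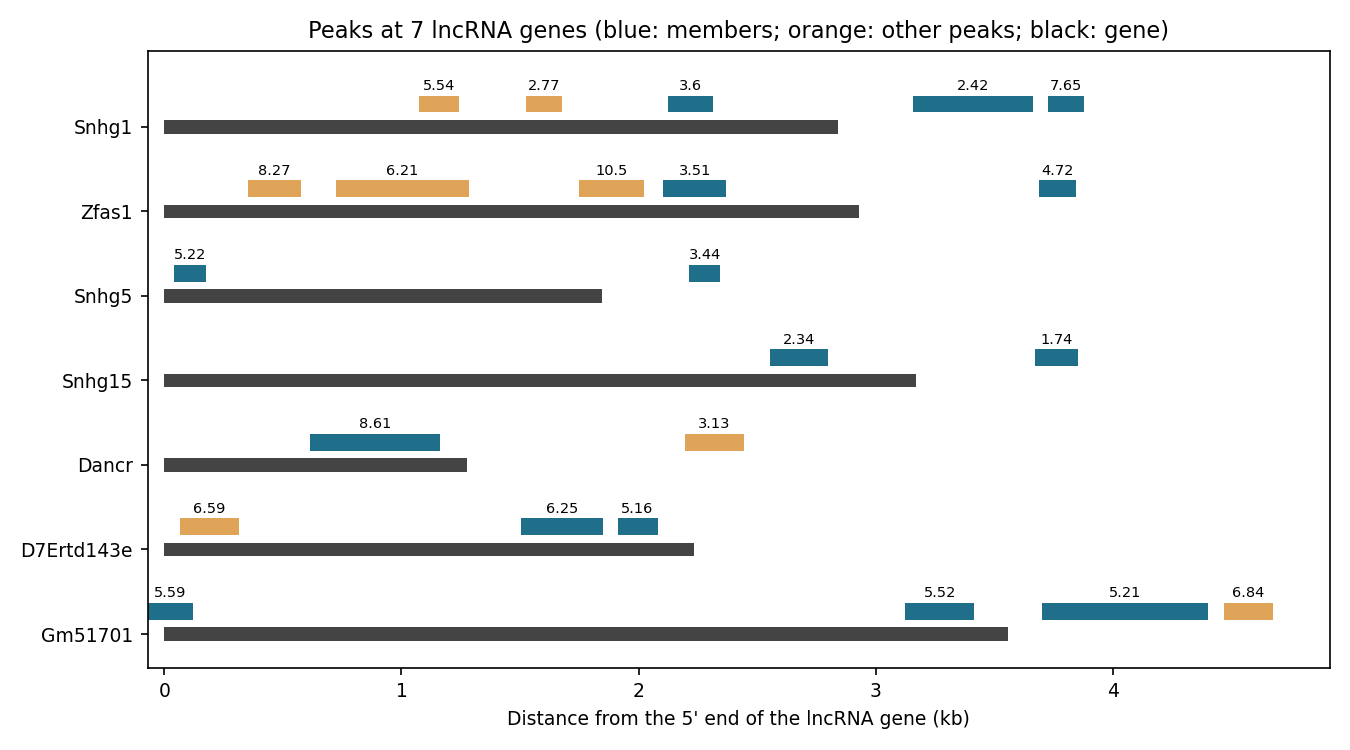
Peaks (coloured bars, labelled with their scores) at 7 lncRNA genes (black bars), by distance from the 5′ end of the gene in kb. Peaks counted here are blue and other peaks orange; in 5 snoRNA hosts and at D7Ertd143e scores run from 1.74 to 10.5, and Gm51701 has peaks at both ends.

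Pluripotency-associated transcripts also had peaks in more cases than lncRNA genes in general. Of 25 genes of this list found in the annotation, 6 were called (24.0%, interval 9.36 to 45.1%, against 2.46% of all lncRNA genes), all of them among the 16 Platr genes on chromosomes 1 to 19. None of the 7 peaks stood in a dense region. Platr26 had the highest score of the list (16.9), with the peak 235 bp before its start, and Platr29 had 2 neighbouring peaks at its end (12.1 and 7.20). In Platr22 the peak (10.9) spanned the start itself, from 209 bp before to 138 bp after it. Platr10 had its counted peak inside the 3′ end (9.23), in a run of 5 peaks, short of the 6 that make a dense region. With the counted one, 5 peaks lay along Platr10 or up to 1 kb beyond its ends. Platr8 and Platr9 had their peaks 106.5 bp and 142 bp before the start (5.70 and 4.96). Thus 4 of the 5 genes with a known strand had the peak at the 5′ end, Platr29 having no strand in the tables used, and the capitals in the sequences printed above show how much of each start region it covered. With only peaks at or above the median score, Platr22, Platr26 and Platr29 were left (12.0%, against 1.19%). The symbol reflects expression in ES cells, so the list is one of genes chosen for activity in this cell type.

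The other lists were called in 0 to 3 genes each. Widely expressed lncRNAs were called in 3 of 11 cases (27.3%, interval 6.02 to 61.0%). Dleu2, a host of the miR-15 and miR-16 genes, had 27.3 at 398.5 bp from its 3′ end. That peak also lay inside the coding gene Trim13 on the opposite strand. Chaserr, which lies beside Chd2 and lowers its expression, had 7.63, and Neat1, the RNA of paraspeckles, had 5.77 at its higher end. Malat1, Tug1 and Pvt1 of that list had none. With only peaks at or above the median score, Dleu2 was left (9.09%, against 1.19%). Hosts of microRNAs were called in 1 of 11 cases, Mir17hg, with a weak peak beyond its 3′ end (2.54). This list left out Dleu2 and D7Ertd143e, which also carry microRNAs and had peaks. Of 25 developmental antisense or divergent transcripts 1 was called, Celrr (9.61, over its start). None of the 8 imprinted transcripts was, and the exact interval, up to 36.9%, includes the 2.46% of all lncRNA genes.

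**Figure D5:**
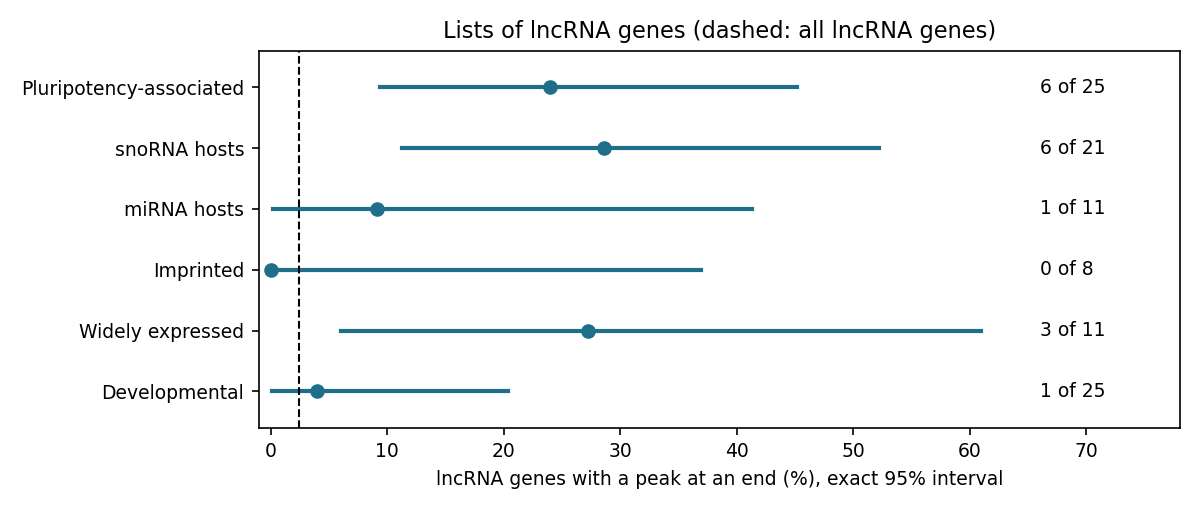
Share of lncRNA genes with a peak at an end by the rule (x axis, %) in 6 lists, with exact 95% intervals and the number of genes; the dashed line is the 2.46% of all lncRNA genes. The intervals of the pluripotency-associated, snoRNA host and widely expressed lists begin above the line, the other 3 include it. Of genes with a symbol other than Gm, Rik or LOC, 5.64% had such a peak. The lists were chosen with earlier results of these data known, and no test of them was made.

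The primary transcript of the miR-290 cluster, listed as D7Ertd143e on chromosome 7 (3218784 to 3221015), carried peaks over its microRNAs. One peak (3220288 to 3220634, score 6.25) covered all 80 bases of the Mir293 hairpin. The other (3220695 to 3220864, score 5.16) covered 30 of 84 bases of Mir294 and all 69 of Mir295. Both stood in a run of 12 peaks. The 3′ arms of these microRNAs, which are among the most abundant microRNAs of ES cells, are shown with the seed (bases 2 to 8, RefSeq) in capitals, and the seed of miR-294-3p and miR-295-3p is the same.
miR-293-3p: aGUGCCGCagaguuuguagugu
miR-294-3p: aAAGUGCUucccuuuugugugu
miR-295-3p: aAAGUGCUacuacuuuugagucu
These were the only 2 of the 328 peaks that overlapped a microRNA gene.

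Further genes with symbols other than Gm, Rik or LOC had scores across the range. Over all 34 such peaks the median was 6.72 (range 1.55 to 27.3), 8 reached the median of all peaks, and 21 were nearest the 3′ end. Dgkeos had 23.0 beyond its 3′ end, Gdap10, inside Nampt, had 22.6, Eprn had 13.96, AI847159 had 9.12, and AV205837 had 8.89 in the widest peak of the group (963 bp). Rbfaos on chromosome 18 (8.27), Zbtb11os1 (4.91) and Pla2g10os (2.92) are named as transcripts opposite to a coding gene. Peaks lay at both ends of 3 genes: Gm51701, A530040E14Rik and Snhg5, which is given above. The gene 1700039I01Rik, among the 20 highest, was 1 of the 23 genes with 2 peaks. Gm51701 on chromosome 9 had 5.59, 5.52 and 5.21, A530040E14Rik had 5.26 over its start and 3.68 inside its 3′ end, and 1700039I01Rik had 59.1 and 3.56 at its 3′ end.

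Few of the peaks had a gene of the pluripotency network as nearest coding neighbour. Of the 328, 3 (0.915%, exact interval 0.189 to 2.65%) were nearest a gene of the core pluripotency list, as were 1.53% of all peaks. They were at Platr22 (10.9) and Gm19705 (7.88), 65.8 kb and 59.9 kb from Zfp281, a repressor and partner of Nanog, and at Gm16201 (6.24), 4.75 kb from Utf1, a chromatin factor of ES cells. Another 3 had a gene of the LIF, BMP, Wnt and FGF signalling list as neighbour (0.915%, interval 0.189 to 2.65%, against 0.511% of all peaks): Gm36603 (Lef1, given above), Gm34756 (11.9, 89.9 kb from Bmp4) and Gm41239 (8.87, 62.8 kb from Spry2, an inhibitor of receptor kinase signalling). From the list of developmental regulators there was 1 (0.305%, against 0.407% of all peaks), 9030622O22Rik, whose peak (7.45) lay 358 bp before its start and 2.01 kb from Foxa2, a factor of endoderm.

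Most of the peaks lay outside protein-coding genes. Their median distance to the nearest protein-coding end was 25.6 kb (quartiles 7.10 and 74.7 kb), and lncRNA gene ends over 1 kb from a coding end had a median of 30.6 kb. Only 66 (20.1%, interval 15.9 to 24.9%) lay inside a protein-coding gene, against 41.8% of all peaks and 27.8% of such lncRNA gene ends. Of 40 for which the strands of both genes were known, 32 (80.0%, interval 64.4 to 90.9%) were at an lncRNA gene on the strand opposite to its host, as were 89.2% of lncRNA ends inside coding genes. Median scores were higher farther from coding genes, with overlapping intervals between neighbouring ranges of distance: the median was 7.64 for 104 peaks 1 to 10 kb from a coding end (interval 6.39 to 9.56), 9.62 for 156 peaks at 10 to 100 kb (8.27 to 12.0) and 10.7 for 68 peaks farther away (8.93 to 13.9). The farthest, at 1190028D05Rik (12.4), was 1160 kb from Aga.

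A total of 125 of the peaks (38.1%, interval 32.8 to 43.6%) had another peak within 10 kb, against 30.9% of all peaks and 53.0% of those at protein-coding ends. Those with a neighbour had a median score of 7.81 (interval 6.46 to 9.26) and the 203 without one 10.2 (interval 9.08 to 12.1). Among chromosomes, lncRNA-end peaks made up from 1.18% (5 of 424, chromosome 18) to 4.53% (13 of 287, chromosome 19) of the peaks.

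Start regions under peaks were close to other lncRNA start regions in base composition. Peaks overlapped the 300-base start region of 57 lncRNA genes, and wholly covered it in 4 (Gm36555, Gm33596, Gm13580 and Gm42000). With 1 region per gene, the median GC content was 49.7% in these 57, 48.7% in all 9291 lncRNA genes with a region in the RefSeq table and 56.7% in 16457 protein-coding genes, and the median number of CpG was 5, 4 and 14. The octamer ATGCAAAT, bound by Oct4 and its relatives, was found in 5 of the 57 (8.77%, interval 2.91 to 19.3%), in 1.84% of all lncRNA regions and in 1.77% of all 25748 regions. It lay under the peak in 2, 120 bases before the start of Gm10858 and 46 bases before that of 4833407H14Rik. In Gm10858 the Sox motif ACAAAG also lay under the peak, 130 bases before the start.

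ACAAAG was found in 22 of the 57 regions (38.6%, interval 26.0 to 52.4%), in 22.3% of all lncRNA regions and in 18.6% of all regions, and lay under the peak in 16 genes, Platr22, Platr26 and Platr9 among them. The other Sox motif, ACAATG, was found in 10 (17.5%, against 15.5% of lncRNA and 12.4% of all regions), and lay under the peak in 8 genes, Platr8 among them. The Klf motif GGGNGTGG was in 14 (24.6%, interval 14.1 to 37.8%, against 14.5% and 17.7%), the Esrrb core CAAGGTCA in 3 (5.26%, against 1.88% and 1.52%) and the TATA box TATAAA in 9 (15.8%, against 15.4% and 14.2%). The CRE motif TGACGTCA was in 1 (1.75%, against 1.03% and 1.92%) and the Ets motif CCGGAAGT in none (exact interval up to 6.27%, against 1.65% and 4.08%). All these counts are over whole start regions, most of them only partly under a peak. The Klf motif lay under the peak in 7 genes, the Esrrb core in 2, the TATA box in 3 and the CRE motif in none. Both strands were searched, and no motif contains another. The 57 regions are among the 9291, so the shares are given side by side without a test, and a match does not show a bound site.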

How the data were processed

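Per the submitters' processing notes, the tools were Bowtie2, cutadapt, bedtools and MACS2, and the build was mm10. Their versions and settings, the role of the input and the read depth were not given in the sources used here. In the list the authors deposited, each peak has a chromosome, start, end and score. The deposited score was taken for −log10 of a q-value, since the lowest, 1.30, is just above the −log10 of 0.05. The scores depend on depth and local background and were used only within the list.

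Genes came from RefSeq (GRCm38.p6, the positions of mm10), and strands and start regions from RefSeq promoter sequences, which matched 246 of the 305 lncRNA genes. Midpoints within 1 kb counted as at an end. Medians have order-statistic intervals and shares exact (Clopper-Pearson) intervals, at 95%. No test was made, since 1 library has no replicates. A planned Nrf1 motif is not reported. The search was checked on 200 planted peaks: all 178 that met the rule were found.

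The peaks and gene lists were chosen with earlier results of these data known. Named genes are the 20 highest peaks, list members, up to 20 genes with a symbol other than Gm, Rik or LOC, peaks whose nearest coding gene is on a list, and genes with peaks at both ends or 3 or more; other genes were named after their values were seen. Alternatives changed the window, the exclusion of coding ends, the score threshold, overlap, merging, dense regions and chromosomes. Scripts ran under Python 3.11.15 with pandas 2.3.3, SciPy 1.17.1, NumPy 2.4.6 and, for plots, matplotlib 3.10.9.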

Additional observations from a re-analysis of the deposited data

Results flagged for a closer look

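Chromosome X was outside the rule, and 4 of its 448 peaks lay at lncRNA gene ends by the same distances: 46.8 and 7.90 at Gm31155, 14.5 at Gm46690 and 9.08 at Gm36466. This was 0.893% of the peaks of chromosome X (exact interval 0.244 to 2.27%), against 2.84% on chromosomes 1 to 19, and the difference was not tested. None of the 19 peaks of chromosome Y lay at such an end. Outside the chromosomes, on scaffolds that no comparison used, there were 169 peaks.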

How the results depend on the processing

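Of 50 recomputed values (10 alternatives for 5 results), 38 stayed within 1.5 times the count or inside the 95% interval of the reported value. There were 195 peaks with a window of 500 bp, 574 with 2 kb, and 152 when the score had to reach the median of the whole list, which includes chromosomes X and Y and scaffolds (150 for the median of chromosomes 1 to 19). The share of lncRNA genes with a peak was then 1.51%, 4.21% and 1.21%, and it was 2.75% without the exclusion of coding ends and 2.02% with an exclusion of 5 kb. These follow from counting more or fewer peaks. Under that score threshold the median was 19.96 and 13.8% had another peak within 10 kb, where the neighbour had to reach the threshold too. In the full list, 48 of the 150 peaks at or above the median of chromosomes 1 to 19 had another peak within 10 kb. With peaks within 1 kb merged, so that near neighbours no longer counted, the share of all lncRNA-end peaks was 25.9%. It was not computed for all peaks of the list. With the 2 kb window 26.0% lay inside a protein-coding gene. Leaving out chromosome 13 from 62 to 68 Mb, an alternative chosen after seeing the data, left 319 peaks with a median score of 9.23. No paired analysis was possible because each group has 1 library. With the number of reads unknown, a gene without a peak cannot be told from one under the detection limit.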
